A study of Mus musculus with 8 samples.

Results

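The 8 genes described here, Kcnq1, Kcne1, Slc12a2, Bsnd, Slc26a4, Lrp2, Wnk2 and Hmx2, were chosen by name for ion transport by the marginal cells of the stria vascularis. That description does not cover each of them, since Lrp2 is an endocytic receptor, Hmx2 a transcription factor, and Slc26a4 is known from cells beside the stria. All 8 were found among 47628 rows of the count tables that name a gene. Bulk RNA was sequenced from isolated whole cochleae of 4 WT and 4 Opa1+/- mice at 21 days of age. Opa1+/- mice carry 1 copy of the Opa1 delTTAG knock-in allele, a deletion of 4 bases in the gene of a mitochondrial inner membrane fusion protein, and WT mice were their littermates. Single mice are named by the animal numbers of the labels, WT mice 4, 5, 6 and 8 and Opa1+/- mice Het_2, Het_7, Het_484 and Het_491. Both groups share a mixed C57BL/6J and 129 Sv/Pas background and received no treatment. The knock-in allele is in every cell, and the stria is a small part of the sampled tissue. In such bulk samples, fewer cells of a type and less RNA per cell cannot be told apart. The comparison asks whether these genes differ with the loss of 1 working Opa1 copy.

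The stria vascularis is the epithelium of the lateral wall of the cochlea that secretes potassium into the endolymph and keeps up the endocochlear potential. Its marginal cells take up potassium from the intrastrial space through the sodium pump and the cotransporter NKCC1, let chloride back out through chloride channels, and pass potassium to the endolymph through an apical channel of KCNQ1 and KCNE1. Loss of KCNQ1, KCNE1 or NKCC1 is known to cause deafness.

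The files held between 15978051 and 20828030 counts per mouse on named genes, and the 8 genes together took 0.0592% to 0.11% of the scaled counts. Opa1 itself lay between 112 and 126 CPM in WT and between 60.4 and 70.02 CPM in Opa1+/- mice, so every library matched its label (log2 fold change -0.87, adjusted p = 0.00515, quasi-likelihood test of edgeR, adjusted by Benjamini-Hochberg over all tested genes). CPM are counts scaled by library size to a fixed total, and CPM per kilobase of exon are used where levels of different genes are compared. The labels name no litter or day for any mouse. The tests treat the mice as independent, which could not be checked.

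None of the 8 genes differed between genotypes at an adjusted p under 0.05 by edgeR, where 5 of 19366 tested genes did (0.0258%), 4 of them higher and 1 lower. None passed an unadjusted p of 0.05 either, against 6.72% of all tested genes, and none was called by DESeq2, which called 0.119% of all genes. None had CPM values that separated the genotypes without overlap, which 4.31% of all tested genes did. All 8 fitted log2 fold changes lay below 0, where 49.9% of all tested genes did, and their median was -0.19 beside 0.000395 over all tested genes. The 8 genes vary together over mice, as described further on, so these 8 signs are not 8 separate observations.

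**Figure D1:**
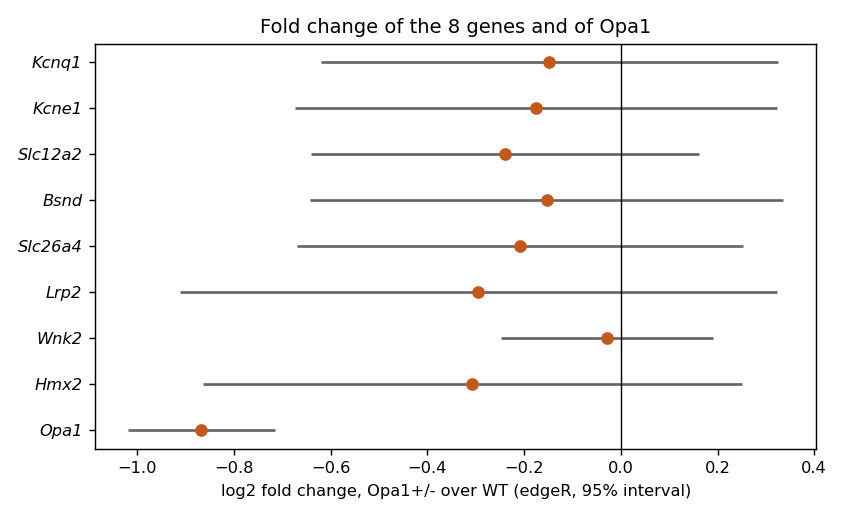
Log2 fold change of each gene in Opa1+/- over WT cochleae with its 95% interval from the edgeR fit (x axis, log2 scale), for the 8 genes and Opa1 (y axis), 4 mice per genotype. The 8 fold changes run from -0.31 for Hmx2 to -0.03 for Wnk2, all with intervals that span 0, and the interval of Opa1 lies between -1.02 and -0.72.

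Kcnq1, the pore-forming subunit of the apical potassium channel, lies on chromosome 7 (143106362 to 143427042, plus strand, GRCm38). In WT mice 4, 5, 6 and 8 it was measured at 15.2, 27.7, 30.35 and 29.7 CPM, and in Opa1+/- mice Het_2, Het_7, Het_484 and Het_491 at 24.6, 22.2, 28.1 and 18.2 CPM. The Opa1+/- values lay within the WT range, whose lowest value was that of WT mouse 4. The log2 fold change was -0.15 (95% interval -0.62 to 0.33, adjusted p = 0.913 by edgeR), which spans folds of 0.65 to 1.25. The antisense RNA Kcnq1ot1 is transcribed within Kcnq1 from the opposite strand and shares 121 exon bases with it. Kcnq1ot1 was measured at 72.3 ± 14.5 CPM (SD, n = 4) in the WT group and 70.5 ± 13.004 CPM in the Opa1+/- group. Whether the counting used strand is not given in the sources used here, so reads in the shared bases cannot be assigned.

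Kcne1, the accessory subunit that slows and enlarges the current of KCNQ1, lies on chromosome 16 (92345982 to 92359468, minus strand). It was measured at 31.45, 50.1, 66.6 and 54.7 CPM in WT mice 4, 5, 6 and 8, and at 48.1, 38.6, 57.8 and 35.1 CPM in Opa1+/- mice Het_2, Het_7, Het_484 and Het_491. The groups overlapped, with WT mouse 4 lowest and WT mouse 6 highest of all mice. Its log2 fold change was -0.18 (95% interval -0.67 to 0.32, adjusted p = 0.901 by edgeR). The ratio of Kcne1 to Kcnq1 CPM, which is not scaled to exon length and is read only between mice, ran from 1.74 to 2.19 over the 8 mice, with means of 1.98 in WT and 1.92 in Opa1+/- mice. On the log2 scale this ratio differed by -0.04 (exact two-sided permutation test, p = 0.686, adjusted over 3 ratios p = 0.686), and the smallest p that 4 against 4 mice allow is 0.0286.

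Slc12a2 encodes NKCC1, the sodium, potassium and chloride cotransporter of the basolateral membrane, and is also known from fibrocytes of the spiral ligament. It lies on chromosome 18 (57878678 to 57946821, plus strand). The values in WT mice 4, 5, 6 and 8 were 290.64, 448.2, 554.85 and 463.5 CPM, and those in Opa1+/- mice Het_2, Het_7, Het_484 and Het_491 were 383.6, 359.1, 434.6 and 310.8 CPM. WT mouse 4 was again the lowest of all and WT mouse 6 the highest. The log2 fold change was -0.24 (95% interval -0.64 to 0.16, adjusted p = 0.818 by edgeR). The log2 ratio of Slc12a2 to Kcnq1 CPM in the same mouse, again read only between mice, was 4.11 ± 0.138 in WT and 4.01 ± 0.0656 in Opa1+/- mice (SD, n = 4), a difference of -0.10 (exact two-sided permutation test, p = 0.257, adjusted p = 0.386).

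Bsnd encodes barttin, a subunit that chloride channels of the marginal cells need at the cell surface, and lies on chromosome 4 (106483456 to 106492283, minus strand). It was measured at 2.91, 4.00, 5.86 and 4.95 CPM in WT mice 4, 5, 6 and 8, and at 3.84, 3.26, 4.58 and 4.28 CPM in Opa1+/- mice Het_2, Het_7, Het_484 and Het_491. The Opa1+/- values lay within the WT range. The log2 fold change was -0.15 (95% interval -0.64 to 0.34, adjusted p = 0.913 by edgeR).

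Slc26a4 encodes pendrin, an exchanger of chloride and bicarbonate that is known from spindle and root cells beside the stria rather than from marginal cells. It lies on chromosome 12 (31519827 to 31559969, minus strand). WT mice 4, 5, 6 and 8 were measured at 42.2, 74.4, 56.4 and 80.7 CPM, and Opa1+/- mice Het_2, Het_7, Het_484 and Het_491 at 51.5, 61.6, 65.2 and 41.4 CPM. Here WT mouse 8 and not WT mouse 6 was the highest, and Opa1+/- mouse Het_491 was the lowest. The log2 fold change was -0.21 (95% interval -0.67 to 0.25, adjusted p = 0.861 by edgeR).

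Lrp2 encodes megalin, a large endocytic receptor on the apical face of marginal cells, and lies on chromosome 2 (69424340 to 69586065, minus strand). It was measured at 132.93, 276.07, 281.58 and 267.7 CPM in WT mice 4, 5, 6 and 8, and at 203.9, 215.1, 248.2 and 114 CPM in Opa1+/- mice Het_2, Het_7, Het_484 and Het_491. In each genotype 1 mouse stood far below the other 3, WT mouse 4 and Opa1+/- mouse Het_491. The log2 fold change was -0.29 with the widest interval of the 8 genes (95% interval -0.91 to 0.32, adjusted p = 0.852 by edgeR).

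Lrp2 and Slc26a4 followed each other over all 8 mice more closely than Slc26a4 followed any other of the 8 genes, so the bases upstream of their RefSeq start sites (GRCm38.p6) are shown, left out from where an annotated exon of the gene begins. For Lrp2 this leaves 36 bases between the end of the printed stretch and the RefSeq start, and for Slc26a4 none. Capitals mark TATAAA (other strand TTTATA) in Slc26a4 and GGGCGG (other strand CCGCCC) in Lrp2.
Slc26a4, chr12:31559985-31560234, minus strand: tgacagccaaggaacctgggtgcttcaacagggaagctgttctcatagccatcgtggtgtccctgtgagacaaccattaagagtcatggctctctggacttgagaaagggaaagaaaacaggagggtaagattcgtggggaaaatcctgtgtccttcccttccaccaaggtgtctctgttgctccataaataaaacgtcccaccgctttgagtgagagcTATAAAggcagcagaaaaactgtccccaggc
Lrp2, chr2:69586066-69586279, minus strand: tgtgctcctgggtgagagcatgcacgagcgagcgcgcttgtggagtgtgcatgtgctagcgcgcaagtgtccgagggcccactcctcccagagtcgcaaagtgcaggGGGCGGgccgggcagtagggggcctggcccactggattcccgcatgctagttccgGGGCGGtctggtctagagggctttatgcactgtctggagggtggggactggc
The TATAAA of Slc26a4 begins 31 bases before the start, and 12.4% of 32851 RefSeq windows of the same 250 bases hold that motif on either strand. Lrp2 holds GGGCGG 143 and 88 bases before its RefSeq start, the 36 bases not printed included, a motif in 27.6% of windows cut to the same 214 bases. AAGGTCA (other strand TGACCTT), the element of estrogen related receptors, did not occur in either stretch and occurs in 4.08% of windows of 250 bases and 3.6% of windows of 214 bases. These matches describe the letters only.

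Wnk2 encodes a kinase of the WNK family, whose members control cation and chloride cotransporters such as NKCC1 through the kinases SPAK and OSR1. It lies on chromosome 13 (49036303 to 49148014, minus strand). It was the steadiest of the 8, at 74.9, 78.5, 99.95 and 90.4 CPM in WT mice 4, 5, 6 and 8 and at 81.1, 89.4, 89.2 and 77.2 CPM in Opa1+/- mice Het_2, Het_7, Het_484 and Het_491. The Opa1+/- values lay within the WT range. Its log2 fold change of -0.03 had the narrowest interval (95% interval -0.25 to 0.19, adjusted p = 0.964 by edgeR), which spans folds of 0.842 to 1.14.

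Hmx2, a homeobox transcription factor needed for the development of the inner ear, lies on chromosome 7 (131548773 to 131558014, plus strand) and was the lowest of the 8. Its values were 1.88, 1.86, 3.58 and 2.55 CPM in WT mice 4, 5, 6 and 8, and 1.95, 1.80, 2.48 and 1.72 CPM in Opa1+/- mice Het_2, Het_7, Het_484 and Het_491. They rested on 27 to 60 counts per mouse, and the groups overlapped. The log2 fold change was -0.31 (95% interval -0.86 to 0.25, adjusted p = 0.831 by edgeR). Fgfr2 covers Hmx2 on the opposite strand without shared exon bases, at 94.4 ± 15.8 CPM (SD, n = 4) in the WT group and 85.4 ± 8.50 CPM in the Opa1+/- group.

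**Figure D2:**
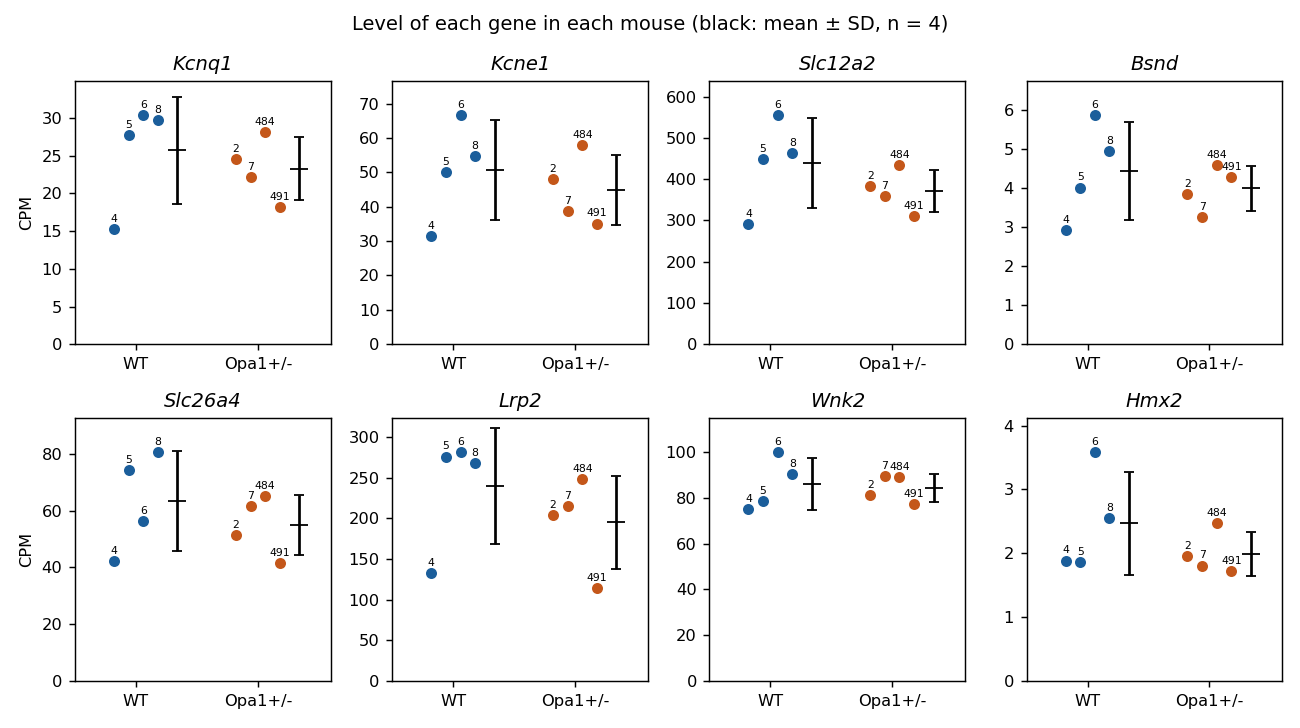
CPM (y axis, linear, from 0) of each of the 8 genes in each mouse, by genotype (x axis), with the animal number above each point and the mean ± SD of 4 mice in black. The genotypes overlap in all 8 panels, WT mouse 4 is lowest of its group in 7 genes and WT mouse 6 highest in 7.

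Ranked by CPM per kilobase of exon, the 8 genes stood in the same order in both genotypes. Slc12a2 came first at 40.2 ± 10.1 in WT and 34.1 ± 4.72 in Opa1+/- mice (SD, n = 4). Slc26a4 (20.4 and 17.7 CPM per kilobase in WT and Opa1+/-), Kcne1 (15.8 and 14.0), Lrp2 (14.3 and 11.7) and Wnk2 (10.1 and 9.93) followed, and the ranges of each neighbouring pair among these overlapped in both genotypes. Kcnq1 stood below them at 6.29 and 5.68 CPM per kilobase, with no overlap with Wnk2 above it or Bsnd below it. Bsnd (1.61 and 1.45) and Hmx2 (0.767 and 0.618) were the lowest, with ranges that overlapped in WT mice and not in Opa1+/- mice, and Bsnd was the higher in all 8 mice.

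The summed CPM of the 8 genes was 592.24, 960.98, 1099.1 and 994.2 in WT mice 4, 5, 6 and 8, and 798.5, 791.02, 930.15 and 602.7 in Opa1+/- mice Het_2, Het_7, Het_484 and Het_491. The means were 911.6 ± 220.9 in WT and 780.6 ± 134.7 in Opa1+/- mice (SD, n = 4), a ratio of 0.856, and Slc12a2 and Lrp2 made up 70.5% to 76.1% of each sum. The ratio moved with single mice of both genotypes, from 0.767 to 0.919 with each mouse left out in turn. Without WT mouse 4 it was 0.767, the median log2 fold change was -0.35, and Kcnq1 and Slc12a2 had unadjusted p-values of 0.0326 and 0.0105 with adjusted p-values of 0.447 and 0.396 by edgeR. Without WT mouse 6 the ratio was 0.919, the median was -0.07 and 6 of the 8 genes lay below 0. Without Opa1+/- mouse Het_491 the ratio was likewise 0.919, the median was -0.10 and 7 of the 8 genes lay below 0, and without Het_484 the ratio was 0.804 and the median -0.31.

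**Figure D3:**
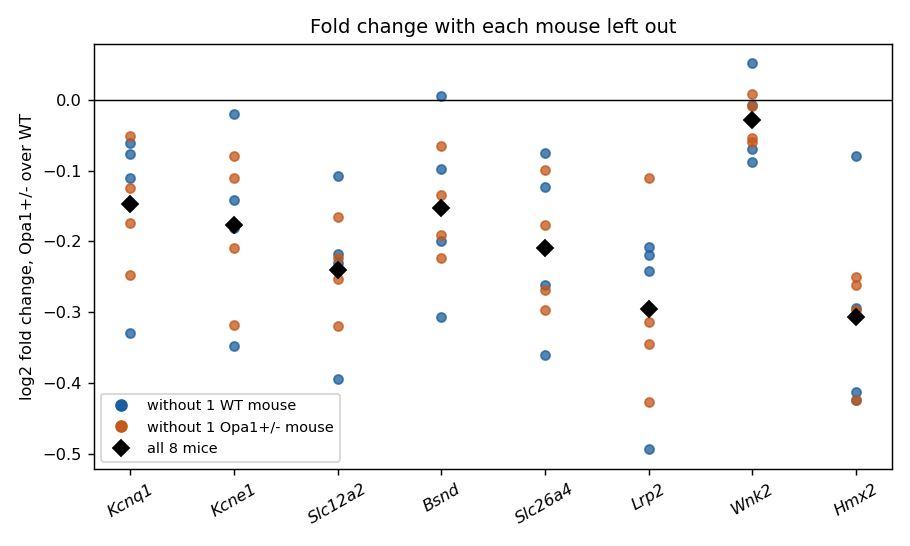
Log2 fold change of Opa1+/- over WT (y axis) for each of the 8 genes (x axis), with all 8 mice (diamonds) and with each mouse left out in turn (circles, by the genotype of the mouse left out). The lowest value of 7 genes came without WT mouse 4, and those of Bsnd and Wnk2 crossed 0 to 0.0047 and 0.05 without WT mouse 6, and that of Wnk2 also without Opa1+/- mouse Het_491.

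Over the 8 mice the genes moved together. Pearson's r of log2 CPM was above 0 in all 28 pairs, with a median of 0.797 and a range of 0.323 to 0.969, and 15 pairs had an adjusted p under 0.05 (exact permutation test over 40320 pairings, adjusted over 28 pairs). By Spearman's rho 9 of the 28 pairs passed. Taken as deviations from the genotype means, the median was again 0.797. Without the 2 mice farthest from the median of the first gene of each pair the median was 0.654, the range was -0.135 to 0.965, and 26 of the 28 stayed above 0. The median r of each gene with all other tested genes lay near 0, from -0.0183 for Wnk2 to 0.0204 for Hmx2. Each gene also had a median r with the rest of the 8. Of 19358 other tested genes, 1.47% (for Lrp2) to 6.25% (for Wnk2) reached or passed that median, so many other genes moved as closely. All pairs come from the same 8 libraries and are not independent of each other.

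Over all 8 mice the 3 highest r were those among Kcnq1, Kcne1 and Slc12a2, an order that did not hold without the 2 farthest mice, where Kcne1 and Bsnd were the highest at 0.965. Kcnq1 and Kcne1 had r = 0.956 (exact permutation p = 7.44e-05, adjusted p = 0.00104, Spearman's rho = 0.976 with adjusted p = 0.00556), and r = 0.925 without WT mouse 4 and Opa1+/- mouse Het_491. Kcne1 and Slc12a2 had r = 0.969 (adjusted exact p = 0.00116, rho = 0.929 with adjusted exact p = 0.0156, r = 0.915 without the same 2 mice). Next came Kcnq1 and Lrp2 with r = 0.931 (adjusted exact p = 0.0143, rho = 0.881 with adjusted exact p = 0.0406, r = 0.873 without WT mouse 4 and Opa1+/- mouse Het_491). Slc12a2 and Lrp2 had r = 0.911 (adjusted exact p = 0.00625, rho = 0.929 with adjusted exact p = 0.0156, r = 0.931 without WT mice 4 and 6). Over all 8 mice the lowest values were those of Slc26a4, with r = 0.323 with Hmx2, 0.385 with Bsnd and 0.488 with Wnk2 and adjusted exact p-values of 0.444, 0.363 and 0.233. These values turned on single mice. With each mouse left out in turn r ran from 0.158 to 0.616 with Hmx2, from 0.0941 to 0.53 with Bsnd and from 0.31 to 0.718 with Wnk2, the lowest with Bsnd without WT mouse 4 and the highest with Bsnd and Hmx2 without WT mouse 6. With Lrp2, Slc26a4 had r = 0.875 (adjusted exact p = 0.0201, rho = 0.738 with adjusted exact p = 0.0802), and 0.579 without WT mouse 4 and Opa1+/- mouse Het_491.

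**Figure D4:**
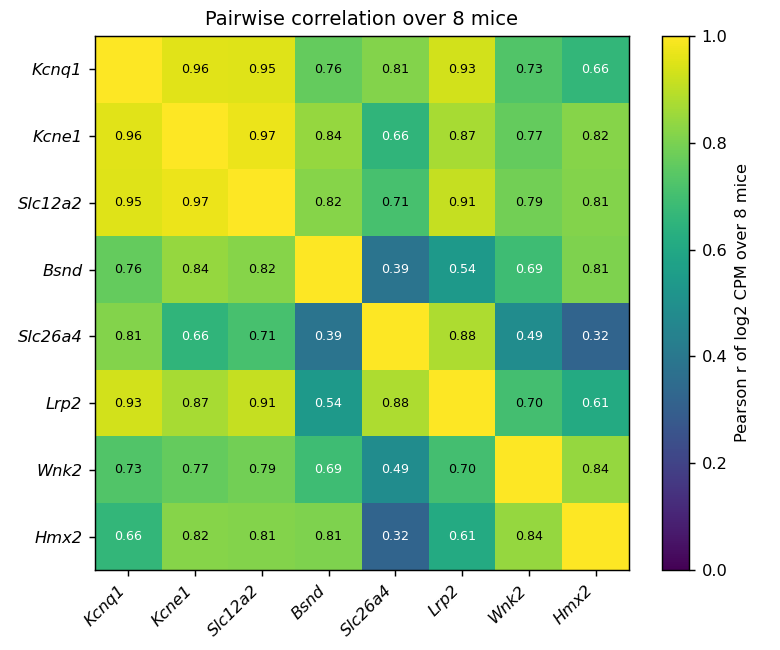
Pearson's r of log2 CPM over the 8 mice for each pair of the 8 genes (colour and printed value, scale 0 to 1). Kcnq1, Kcne1 and Slc12a2 form the block of highest values, 0.953 to 0.969, and Slc26a4 has the lowest, 0.323 with Hmx2.

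Other genes whose log2 CPM followed the mean standardized profile of the 8 genes most closely were, of 19358 other tested genes, Zhx3 (r = 0.985), Kctd18 (0.982), Jam3 and Enah (0.979 each), Yap1 (0.978), Prom2 (0.977), Mitf (0.973), Socs6 (0.969), and Zic2 and Ppp4r1 (0.968 each), each over 8 mice and given as a description. Mitf is the master factor of pigment cells, and Yap1 a factor of the Hippo pathway. Their log2 fold changes lay between -0.16 and -0.04 and none was called.

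Marker genes of blood, marrow and other strial cells were set beside the 8 genes over the mice, and 1 of the 32 relations computed passed an adjusted p of 0.05. The summed CPM of 9 erythroid genes, the haemoglobins among them, was between 7746 and 21454 in WT and between 15062 and 25054 in the Opa1+/- group. It was highest of its group in WT mouse 4 and in Opa1+/- mouse Het_491, the mice with the lowest sums of the 8 genes. All 9 erythroid log2 fold changes lay above 0 with a median of 0.56, none was called, and none of the 9 was at 0 in any mouse. The r of the 8 genes with the erythroid sum had a median of -0.737 and a range of -0.843 to -0.606, and none of the 8 passed an adjusted p of 0.05 over the 32 relations, which were chosen after the values were seen. Without the 2 mice farthest from the median of each gene these r lay between -0.773 and -0.0585. The 9 neutrophil and marrow genes summed to 427 to 1403 CPM over the WT mice and 450 to 1163 CPM over the Opa1+/- mice, highest in the same 2 mice. Their r with the 8 genes had a median of -0.673, none of the 8 passed, and without the 2 farthest mice the r lay between -0.52 and 0.423, with Kcnq1 going from -0.778 to 0.182 and Lrp2 from -0.829 to -0.0881. With erythroid and mitochondrially encoded genes left out of the library sizes, all 8 log2 fold changes stayed below 0 and none was called. That setting rescales all genes of a mouse alike, so it cannot show what part blood has in these values. The part of blood or marrow in the differences between mice was not tested.

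**Figure D5:**
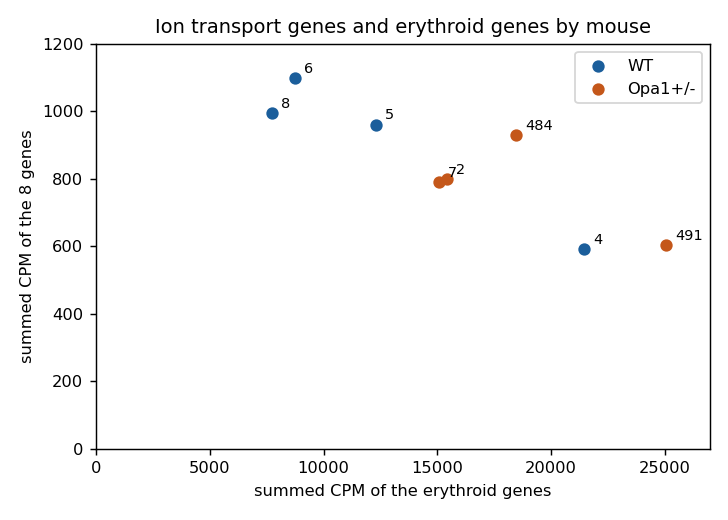
Summed CPM of the 8 genes (y axis) against summed CPM of the 9 listed erythroid genes (x axis) in each mouse, numbered and coloured by genotype. WT mouse 4 and Opa1+/- mouse Het_491 have the highest erythroid sums of their groups, 21454 and 25054, and the lowest sums of the 8 genes, 592.24 and 602.7.

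Intermediate cells are the pigment cells of the stria and hold the potassium channel KCNJ10. The 10 intermediate cell genes summed to 353 to 685 CPM over the WT mice and 431 to 585 CPM over the Opa1+/- mice, with a median log2 fold change of -0.11 and no gene called. Kcnj10 and Dct made up much of this sum, at 192.9 and 197.2 CPM in the WT group and 192.7 and 222 CPM in the Opa1+/- group. The sum of the 10 genes followed Bsnd with r = 0.941 (exact permutation p = 0.000918, adjusted p = 0.0294, Spearman's rho = 0.905 with adjusted exact p = 0.114), 0.99 on deviations from the genotype means and 0.811 without WT mice 4 and 6. It was the only relation to pass, by Pearson's r and not by Spearman's rho. With the other 7 genes r was 0.194 for Slc26a4 to 0.736 for Kcne1, and for Slc12a2 it went from 0.673 to -0.0385 without WT mice 4 and 6. Of the 5 root and spindle cell genes Epyc and Anxa1 were the highest, at 199.8 and 119.4 CPM in the WT group and 191.9 and 108.6 CPM in the Opa1+/- group. The sum of the 5 followed Slc26a4 with r = 0.832 (exact permutation p = 0.0144, adjusted p = 0.101, rho = 0.762 with adjusted exact p = 0.168), and 0.913 without WT mouse 4 and Opa1+/- mouse Het_491. With the other 7 genes this sum had r of 0.0948 to 0.522. Without the 2 mice farthest from the median of each gene, those 7 values ran from -0.00178 for Kcne1 to 0.764 for Slc12a2. Among 9 fibrocyte genes Otor, and among 4 basal cell genes Tjp1, had an unadjusted p under 0.05 and lay lower in Opa1+/- mice (log2 fold changes -0.51 and -0.19), and neither was called. The vestibular genes summed to 11.0 to 22.3 CPM and the choroid plexus genes to 73.4 to 140.9 CPM over the 8 mice, and no gene of either list was called. Their median log2 fold changes were -0.18 and -0.21, beside -0.19 for the 8 genes. All 6 Schwann cell genes lay above 0 (median log2 fold change 0.22), with Egr2 at 0.34 and an unadjusted p of 0.00285 by edgeR, and none was called. The medians of the hair cell, spiral ganglion neuron and bone genes were -0.06, -0.01 and -0.01, again with no gene called.

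The partners of the 8 genes in the same pathways were taken from lists. None of the genes in the 8 partner lists had an adjusted or an unadjusted p under 0.05. Of the potassium channel partners 8 of 9 were tested, 5 lay below 0 and the median log2 fold change was -0.09. Their summed CPM was 290.1 to 305.1 in WT and 256.7 to 284 in Opa1+/- mice, and Akap9, a scaffold protein, made up much of it at 131.7 ± 9.69 CPM in WT and 119.5 ± 4.94 in Opa1+/- mice (SD, n = 4). Of the chloride channels and sodium pump subunits 5 of 6 were tested, 4 lay below 0 and the median log2 fold change was -0.12. The sodium pump subunit Atp1b1 stood at 324.9 ± 37.0 CPM per kilobase in WT and 298.5 ± 8.50 in Opa1+/- mice (SD, n = 4).

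All 11 genes of the WNK kinase cascade were tested and 10 lay below 0, with a median of -0.08. Their summed CPM was 1127.2 to 1213.5 in WT and 1078.6 to 1126.7 in Opa1+/- mice, with Wnk1 at 344.3 ± 15.4 and 327.3 ± 6.41 CPM the largest part. The sums of these 2 lists did not overlap between genotypes, the WNK sums by less than 1 CPM, and those of the other 6 partner lists did. No summed level was tested, and the share of all possible sums that do not overlap is not known. Stk39, which encodes SPAK, was the highest of them, at 36.9 ± 3.53 CPM per kilobase in WT and 33.8 ± 1.78 in Opa1+/- mice (SD, n = 4). The other cation and chloride cotransporters (5 of 8 tested, 3 below 0, median log2 fold change -0.04) held no called gene. The other Slc26 anion exchangers (6 of 10 tested, 4 below 0, median -0.04) were led by Slc26a7 at 5.39 ± 0.604 and 5.11 ± 0.814 CPM per kilobase in WT and Opa1+/- mice.

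Of the genes of acid and base transport all 7 were tested and 6 lay below 0, with a median of -0.07, and the carbonic anhydrase Car2 stood at 105 ± 15.8 CPM per kilobase in WT and 109.5 ± 9.11 in Opa1+/- mice (SD, n = 4). Of the Lrp2 endocytosis partners 7 of 8 were tested and 4 lay below 0, with a median of -0.01, and the megalin chaperone Lrpap1 stood at 61.1 ± 4.91 and 62.3 ± 7.32. Of the Hmx and estrogen related receptor factors 4 of 5 were tested and 3 lay below 0, with a median of -0.16. Esrrg was the highest of these at 9.78 ± 2.25 and 8.27 ± 1.12 CPM per kilobase. Esrrb, a receptor known to be needed for strial marginal cells, was measured at 54.5 ± 14.6 CPM (SD, n = 4) in the WT group and 47.9 ± 9.63 CPM in the Opa1+/- group and followed the mean profile of the 8 genes with r = 0.947, rank 37 of 19358. Genes listed for other cell types also followed that profile, among them Sox8 of basal cells (r = 0.96, rank 17), Tbx18 and Coch of fibrocytes (0.933 and 0.92) and Myo6 of hair cells (0.926). The summed CPM of the 9 fibrocyte genes was likewise lowest of its group in WT mouse 4 and Opa1+/- mouse Het_491 (5198 and 5479) and highest in WT mouse 6 and Opa1+/- mouse Het_484 (7552 and 6544). These genes are named outside the rule for named genes, after their values were seen.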

How the data were processed

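Total RNA of 8 cochlea samples was made into CORALL libraries (Lexogen) and sequenced in paired reads of 80 nucleotides. The authors ran the CORALL pipeline, used molecular identifiers against amplification bias, and deposited raw counts per gene for each mouse. Their notes name FastQC and STAR. The counter within that pipeline and its strand setting are not given in the sources used here. Each file held 47643 rows, of which 15 carry a number in place of a gene symbol (0.112% to 0.124% of counts) and were left out.

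Genes with a mean DESeq2-normalized count over 10 were tested with edgeR 4.0.16 (quasi-likelihood, TMM scaling, Benjamini-Hochberg adjustment, R 4.3.3), all 8 mice in 1 unpaired fit. The script was tested on simulated data. Log2 CPM used a prior count of 2, and correlations and ratios used exact permutation tests. Positions and exon lengths came from GENCODE vM21 (GRCm38), which held 45236 of 47502 symbols, and upstream sequences from RefSeq, whose table held 4 of the 8 genes. Intervals cover the spread between mice.

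The genes and lists were chosen with earlier results of these data known. Named were the 8 genes, overlapping genes, Opa1, the highest gene per kilobase and any with unadjusted p under 0.05 of each partner list, and the 10 genes most like the mean profile. Genes that made up much of some sums are also named. Alternatives were DESeq2 1.42.0, limma 3.58.1 voom, other scalings and filters, and each mouse left out. Leaving out WT 4 with Het_491, and Het_484 with Het_491, was added after seeing the data. Of the 3 ratios tested 1 is not reported here, nor are some genes that the naming rule picks.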

Additional observations from a re-analysis of the deposited data

Results flagged for a closer look

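The Lrp2 level of WT mouse 4, 132.93 CPM, lay far below those of the other 3 WT mice, with a gap of 0.907 of the whole WT range. It was the only value singled out among the 24 groups of 4 mice examined by Dixon's criterion, and chance singles out about 1 in 20 such groups.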

How the results depend on the processing

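No member gene was called under any of the 17 alternatives. Of 136 member fold changes under them, 4 changed sign. Wnk2 was 0.0011 with limma voom and ranged from -0.088 to 0.052 with each mouse left out in turn, and Bsnd ranged from -0.31 to 0.0047. The count of all genes called was 5, against 23 with DESeq2, 10 with limma voom, 12 with no filter and 0 to 9 with each mouse left out. The log2 ratio of Kcne1 to Kcnq1 ranged from -0.081 to 0.0119 with a mouse left out. WT 4 and Het_491 were left out together because their summed member CPM were the lowest of their groups, after the data were seen. Their erythroid sums were also the highest. As these mice were chosen by the measured value itself, the p-values of that setting are not read as a test, and 0 member genes and 0 of all genes were called. Without Opa1+/- mice Het_484 and Het_491 also 0 were called. The causes were not tested. No analysis paired by litter was possible because the labels do not give the litters of these littermates. With 27 to 60 counts for Hmx2, counting error adds to the spread between mice.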
